A study of Mus musculus with 6 samples.

Results

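The genes described here are 44 genes of DNA replication and mitosis, taken by name from the 19977 genes of the deposited table after its transcript values were summed per gene. They fall into 28 replication genes, 12 mitotic genes and 4 transcription factors that regulate both sets. The RNA came from CD4+ T cells, and the donors were wild-type mice of the C57BL/6 strain, either young, at 6 to 8 weeks, or old, at 11 months. Spleen and lymph nodes supplied the cells, which were sorted by flow cytometry and in both age groups kept for 6 hours with antibodies to CD3 and CD28, which stimulate the T-cell receptor complex and its costimulatory receptor. Sample titles code the young age as 1 month. There were 3 libraries per age, with 16932551 to 18708205 expected counts each. No unstimulated library was analysed here. Since no label says that each library came from its own mouse, a p-value here reflects variation from library to library, which may be technical.

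Before each division a cell loads a ring-shaped helicase, made of Mcm2 to Mcm7, onto its origins, activates it with the Gins complex, and copies DNA with polymerases held by the sliding clamp Pcna. Most genes of this machinery are targets of E2F transcription factors and are switched on late in G1. Genes of mitosis, such as those of cyclin B and the Aurora kinases, are switched on later, in G2. The DREAM complex and Foxm1 are among their regulators. Resting T cells hold both sets low, and after stimulation they grow for many hours before the first S phase.

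The replication genes had higher levels than the mitotic genes. On the FPKM scale, which divides reads by transcript length and library total, the mean over 6 libraries ran from 1.45 for Cdc6 to 227 for Pcna among replication genes, with a median of 12.2. Among mitotic genes it ran from 0.493 for Bub1 to 6.01 for Cdc20, with a median of 3.06. The 4 regulators lay between 0.778 for E2f8 and 3.02 for E2f1. A mean FPKM of 1 was the limit for testing, and the median over all 10509 genes that reached it was 14.5. Bub1 and E2f8 were below that limit, so that 42 of the 44 genes were tested, including all 28 replication genes.

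**Figure D1:**
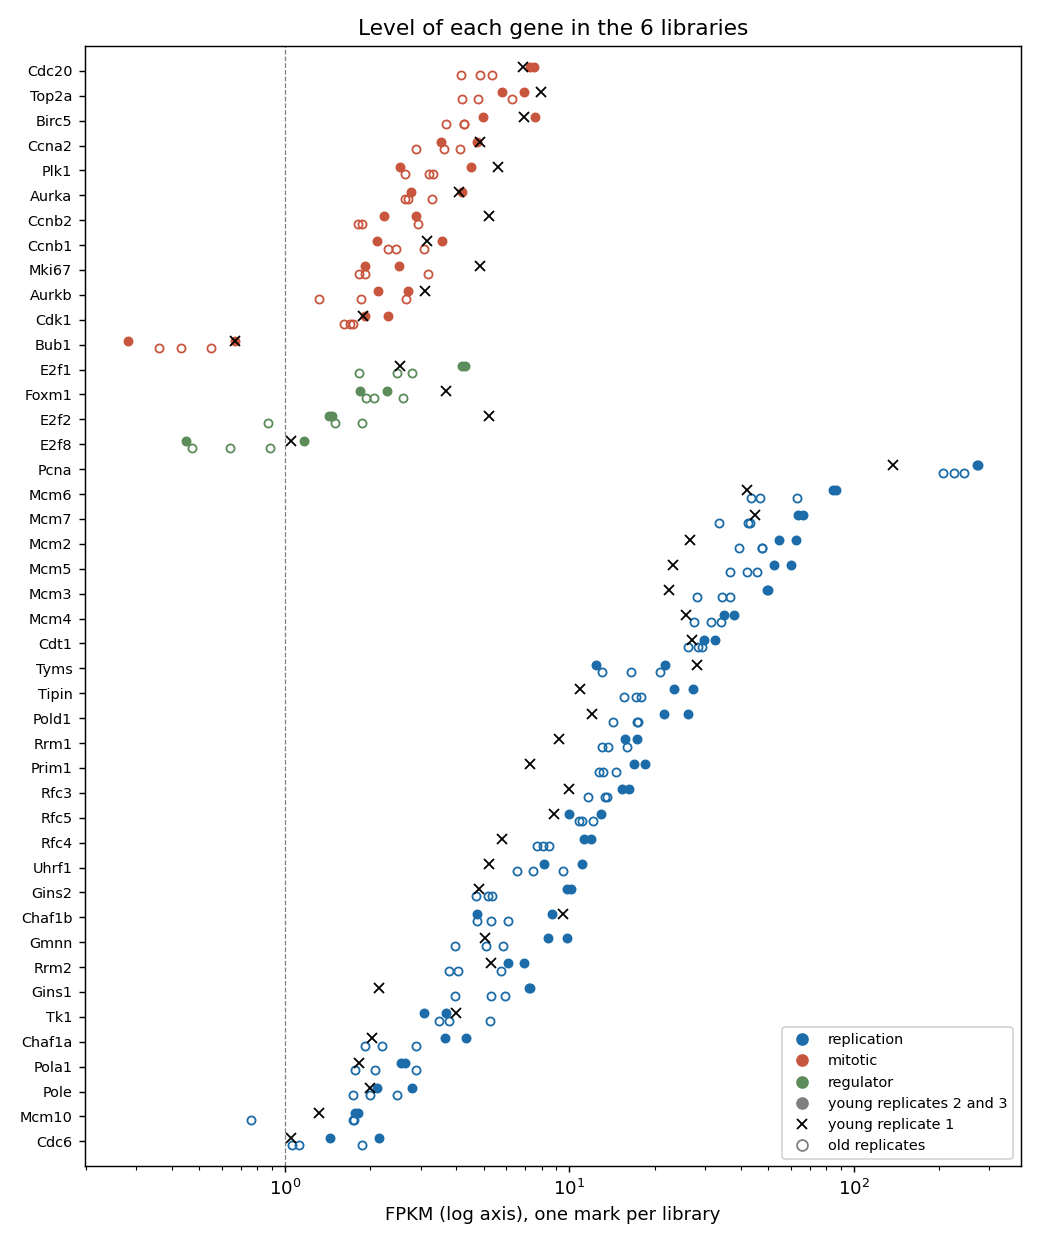
FPKM (log axis) of each of the 44 genes, with 1 mark per library and young replicate 1 marked apart from the other young libraries and from the old ones. Pcna is highest, at a mean of 227 FPKM, and Bub1 lowest, at 0.493.

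E2F words were frequent around the starts of replication genes and CHR words around the starts of mitotic genes. In RefSeq windows of GRCm38.p6 that run from 250 bases before to 50 bases after a gene's start, 35 of the 44 genes had an entry, and a gene with several windows was counted once if any held a match. Both strands were searched for 4 E2F-type words (TTGGCGC and TTCCCGC, together with TTGCCGC and TTCGCGC), for the CHR words TTTGAA and also TTCGAA, and for CCAAT, and 0 windows of these genes held an E2F match that overlapped a CHR match. An E2F word was found in 16 of 22 replication genes (72.7%) and 3 of 10 mitotic genes, against 10.9% of all 27025 genes with an entry. A CHR word, the element that the DREAM complex is known to bind, was found in 8 of 10 mitotic genes and 3 of 22 replication genes, against 21.7% of all genes. CCAAT was found in 9 of 10 mitotic and 14 of 22 replication genes, against 41.1% of all. In wider lists of each pathway, an E2F word was in 20 of 36 other replication genes and 14 of 54 other mitosis genes, and a CHR word in 8 of 36 and 40 of 54. The shares of all genes here cover every gene with an entry, whether or not it was tested for age. A match describes the letters and is not evidence of binding.

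The 250 bases before the start are shown for 4 genes, to set a window that holds its class's word beside one that does not. Among genes with an entry, they are the replication genes with the smallest p for age with an E2F word (Mcm7) and without (Tk1), and the mitotic genes with the smallest p with a CHR word (Cdc20) and without (Birc5). Capitals mark the E2F word GCGGGAA, read on the other strand, and the CHR word TTCGAA in Mcm7, and the CHR word TTTGAA in Cdc20. Mcm7 has 2 more E2F matches in the 50 bases after this start, and a second window with another E2F match, which are not shown. The starts used for Mcm7 and Tk1 lie inside the gene spans, which end at 138172111 and 117826087. Part of the bases printed for these genes is therefore within the gene.
Mcm7, chr5:138171884-138172133, minus strand: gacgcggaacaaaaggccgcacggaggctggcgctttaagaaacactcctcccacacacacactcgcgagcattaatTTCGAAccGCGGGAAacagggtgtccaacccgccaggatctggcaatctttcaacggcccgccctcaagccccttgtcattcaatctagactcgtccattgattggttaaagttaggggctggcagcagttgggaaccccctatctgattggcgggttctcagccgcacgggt
Tk1, chr11:117826015-117826264, minus strand: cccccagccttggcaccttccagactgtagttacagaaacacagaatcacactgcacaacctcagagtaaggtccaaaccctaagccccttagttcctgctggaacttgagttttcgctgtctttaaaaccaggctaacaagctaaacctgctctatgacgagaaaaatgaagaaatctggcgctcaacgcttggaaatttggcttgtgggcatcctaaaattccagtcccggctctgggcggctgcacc
Cdc20, chr4:118437344-118437593, minus strand: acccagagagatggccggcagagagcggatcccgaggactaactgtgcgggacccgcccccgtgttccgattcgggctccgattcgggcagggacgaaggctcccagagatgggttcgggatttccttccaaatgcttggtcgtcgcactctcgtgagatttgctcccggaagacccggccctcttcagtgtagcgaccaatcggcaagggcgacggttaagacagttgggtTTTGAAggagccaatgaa
Birc5, chr11:117848987-117849236, plus strand: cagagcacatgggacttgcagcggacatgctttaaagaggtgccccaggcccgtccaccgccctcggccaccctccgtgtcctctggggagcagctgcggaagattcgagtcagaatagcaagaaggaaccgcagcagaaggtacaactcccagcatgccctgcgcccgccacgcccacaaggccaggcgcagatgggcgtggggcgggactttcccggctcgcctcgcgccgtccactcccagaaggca

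In the comparison of old with young libraries, 0 of the 42 tested genes were called. The test was the quasi-likelihood test of edgeR, with p-values adjusted over all tested genes by the Benjamini-Hochberg method, at an adjusted p of 0.05, and it called 92 of 10509 genes (0.875%). The lowest adjusted p among the 42 was 0.281, for Cdc20. An unadjusted p under 0.05 was reached by 3 of the 42 (Cdc20, Mcm7 and Birc5), all with lower values in old libraries, where 3.96% of all genes had such a p in that direction. DESeq2 called 0 of the 42 and 4.77% of all genes. The fitted log2 difference, old minus young, was below 0 for 40 of the 42, against 55.1% of all genes. Its median was -0.23 over replication genes, -0.45 over the 11 tested mitotic genes and -0.66 over the 3 tested regulators, beside -0.035 over all genes. The replication median was -0.42 without young replicate 1 and -0.053 without young replicate 3, the ends of its range with 1 library left out. In bulk RNA, fewer cells with a transcript and less of it per cell cannot be told apart.

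Young replicate 1 stood apart, and replication and mitotic genes were displaced differently in it. CPM is here the share of a library's TMM-scaled counts, on the usual CPM scale. Correlations across genes, which are not independent replicates, used log2 levels scaled by plain library totals instead. Young replicate 1 correlated at 0.927 and 0.914 with young replicates 2 and 3, whose own correlation was 0.982. Of the 28 replication genes, 25 were below both other young libraries there, among them all 12 of helicase loading and activation and all 9 of the fork. Of the 12 mitotic genes, 6 were above both, 4 between and 2 below. Of all tested genes, 41.2% were below both and 45.7% above both. The level in young replicate 1 over the mean of young replicates 2 and 3 had a median of 0.531 over replication genes, 1.16 over mitotic genes and 1.03 over all genes.

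Summed levels show the same split. The 28 replication genes summed to 1116, 1954 and 2038 CPM in young replicates 1, 2 and 3 and to 1449, 1557 and 1364 CPM in old replicates 1, 2 and 3. The old libraries thus lay above young replicate 1 and below the other young libraries. The 12 mitotic genes summed to 176, 143 and 127 CPM in young and to 102, 129.6 and 95.4 CPM in old libraries, in replicate order. Here young replicate 1 was highest, and old replicate 2 exceeded young replicate 3. Mki67 and Top2a held a large part of these sums, at 44.9 and 40.8 CPM in young replicate 1. The overlap between the ages rested on Mki67, at 29.6 CPM in old replicate 2 and 18.9 CPM in young replicate 3. Without Mki67, a gene singled out after its values were seen, the mitotic sum was higher in every young library than in any old one. As a percentage of the replication sum in the same library, the sum of all 12 mitotic genes was 15.8% in young replicate 1 and 6.22% to 8.32% in the other 5.

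**Figure D2:**
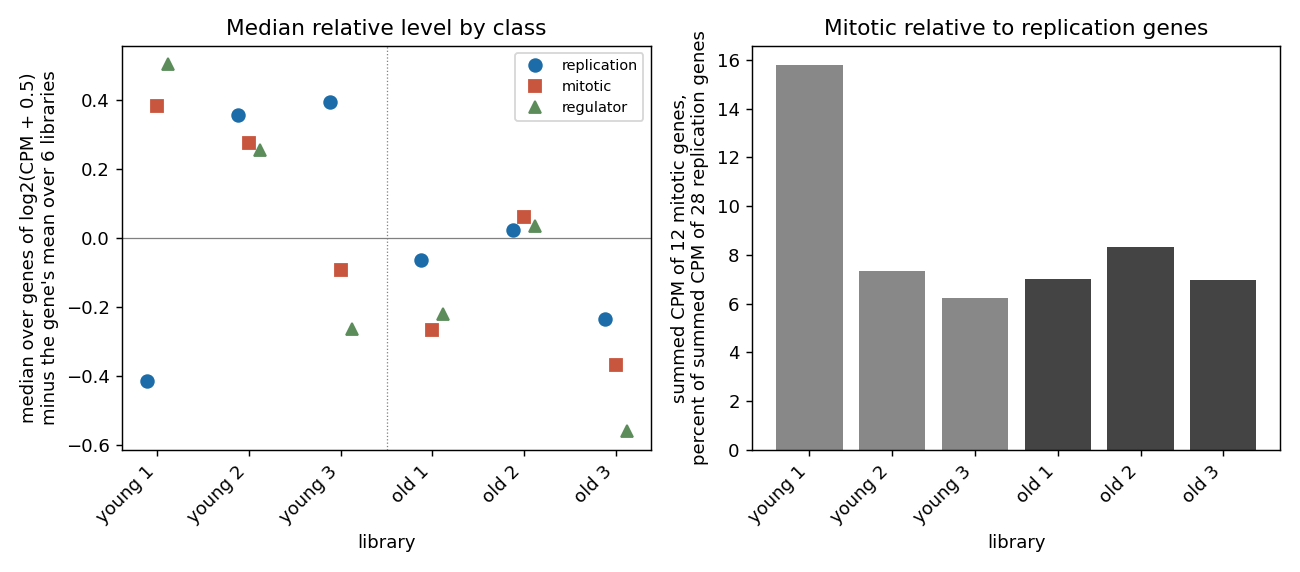
One panel gives the median over a class's genes of log2(CPM + 0.5) minus each gene's mean over 6 libraries, per library, and the other the summed CPM of the mitotic genes as a percentage of that of the replication genes. Young replicate 1 has the lowest replication median (-0.41) and the highest mitotic median (0.38), and its percentage, 15.8%, is above those of the other 5 libraries.

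Other gene groups moved with that library, and their part in the results was not tested. Of 30 early stimulation genes, 25 were below both other young libraries in it. They summed to 5595, 10018 and 8868 CPM in young replicates 1, 2 and 3, and to 11032 to 14975 CPM in old libraries. These sums did not overlap between the ages. All 30 genes had a positive log2 difference, with a median of 0.67, or 0.54 without young replicate 1, where 4 were below 0. EdgeR called 1 of the 30 higher with all libraries and 10 without young replicate 1, where 78 and 616 of 10509 genes were called higher. DESeq2 with all libraries called 12 of the 30, against 4.77% of all genes. Of 21 quiescence genes, 18 were above both, with a sum of 12605 CPM against 5570 to 6442 CPM in the other 5 libraries. All 8 B-cell markers were above both as well, with a sum of 43.1 CPM against 15.6 to 32.6 CPM elsewhere, and 0 of the 8 lacked counts in any library. The 9 T-cell markers summed to 3431 to 4159 CPM and 0 were called in edgeR, where 1 had an unadjusted p under 0.05, or in DESeq2. Thy1 was called higher in old libraries once young replicate 1 was left out (edgeR, adjusted p = 0.00449). Sums of 2 CD8 markers did not overlap between the ages, at 16.6 to 27.5 CPM in young and 11.3 to 14.6 CPM in old libraries. Cd8b1 held most of them. EdgeR did not call it (adjusted p = 0.266), whereas DESeq2 did without young replicate 1 (adjusted p = 0.0215). Cd8a was too rare to be tested, and its groups overlapped. Among the marker lists, the ages did not overlap for 3 others, whose part was not tested either. The 6 plasma cell markers summed to 12.8 to 23.6 CPM in young and 40.5 to 54.8 CPM in old libraries, and 5 NK-cell markers to 48.04 to 99.8 and 30.5 to 37.9 CPM. Eomes in the NK-cell list, and Prdm1 with Jchain in the plasma cell list, held most of these sums. Eomes alone stood at 47.6 to 99.7 CPM in young and 29.7 to 37.1 CPM in old libraries, while the other 4 NK-cell markers stayed under 1 CPM, with higher means in old libraries. Of the plasma cell markers, Prdm1 stood at 5.43 to 17.7 and 26.8 to 34.97 CPM and Jchain at 1.27 to 4.33 and 4.86 to 15.3 CPM, whereas Derl3, Sdc1 and Tnfrsf17 had lower means in old libraries. With all libraries, edgeR did not call Eomes, Prdm1 or Jchain (adjusted p = 0.108, 0.174 and 0.196). DESeq2 called each (adjusted p = 0.00193, 0.00788 and 0.0108). Without young replicate 1, edgeR called Eomes lower (adjusted p = 0.00191) and Prdm1 higher (adjusted p = 0.00194) in old libraries, but not Jchain (adjusted p = 0.074). The third, 11 myeloid markers, summed to 23.4 to 48.2 CPM in young and 11.3 to 23.02 CPM in old libraries, and 9 erythroid markers to at most 5.95 CPM. S100a8, S100a9 and Lyz2 held most of the myeloid sums in young libraries. Clec7a went the other way, at 1.33 to 2.96 CPM in young and 3.11 to 7.60 CPM in old libraries. Elane and Mpo, both under 1 CPM, also had higher means in old libraries, and the rest had lower ones. In single libraries, up to 1 plasma cell, 3 NK-cell, 2 myeloid and 5 erythroid markers had no counts.

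**Figure D3:**
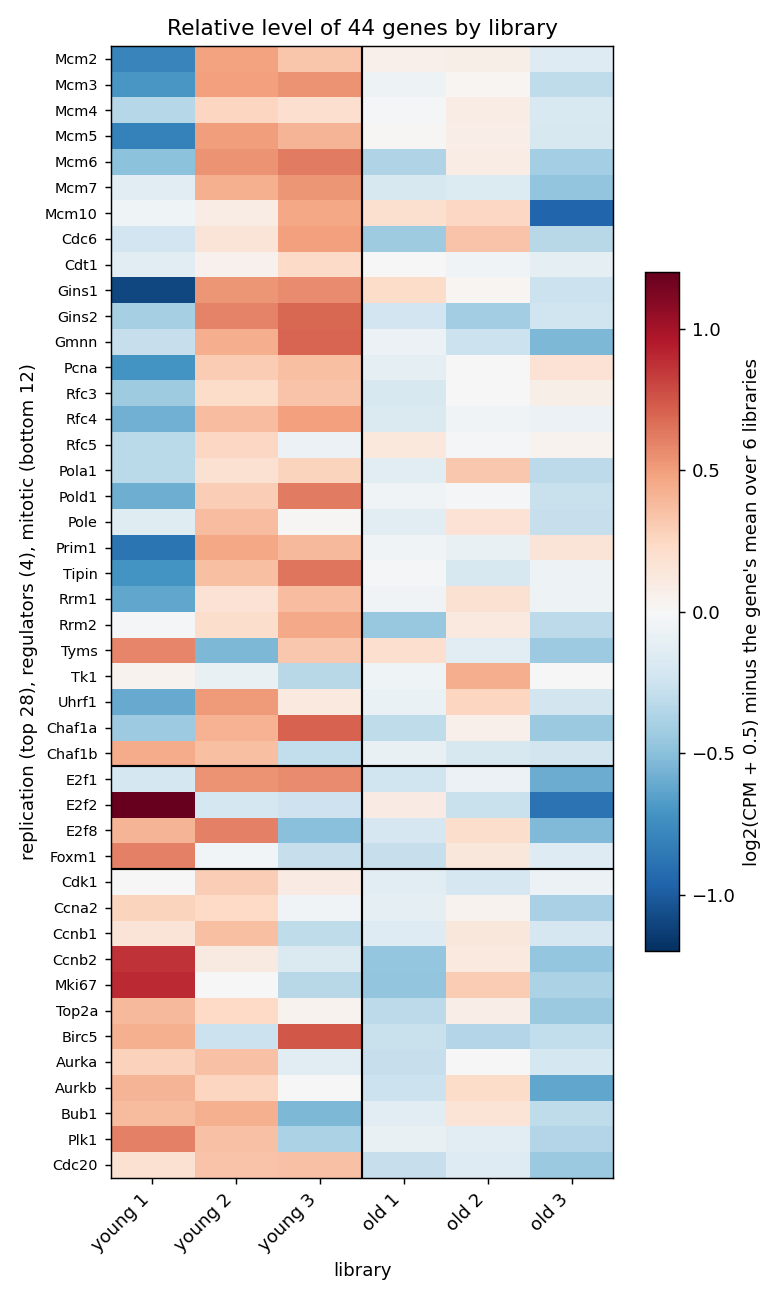
Level of each of the 44 genes in each of the 6 libraries, as log2(CPM + 0.5) minus the gene's mean over libraries, with the colour scale giving the distance from that mean. In young replicate 1, 25 of 28 replication genes are below both other young libraries, whereas E2f2, Mki67 and Ccnb2 are above both.

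Without young replicate 1, which left young replicates 2 and 3 against the 3 old libraries, the same edgeR test called 7 of the 42 genes. All 7 were lower in old libraries and all were replication genes. The library left out was below both other young ones for 25 of 28 replication genes and 2 of 12 mitotic genes. Leaving it out thus raised the young level mostly in replication genes, and the class of the calls cannot be told apart from that choice. The 7 calls are 16.7% of the 42, where 2.98% of all genes were called lower and 8.84% in either direction. The 7 were the helicase subunits Mcm3, Mcm5, Mcm6 and Mcm7, the Gins complex subunit Gins2, the polymerase delta catalytic subunit Pold1, and Tipin, which acts with Timeless to steady the fork. Groups did not overlap for 23 of the 44 genes, lower in old libraries for all of them except Tk1, where 23.2% of all tested genes had groups apart in that direction. The log2 difference was below 0 for 39 of the 42, against 49.0% of all genes. Its median was -0.42 over replication genes, -0.31 over mitotic genes, -0.076 over regulators and 0.0087 over all genes. DESeq2 without that library called 12 of the 42 lower, 10 of them replication genes, against 7.62% of all genes called lower. Limma on log2(FPKM + 1) called 6 of the 42, against 7.65% of all genes in either direction. Leaving out any other single library gave 0 calls among the 42 in edgeR. Whether replication and mitotic genes differ from each other in their change with age was not tested.

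**Figure D4:**
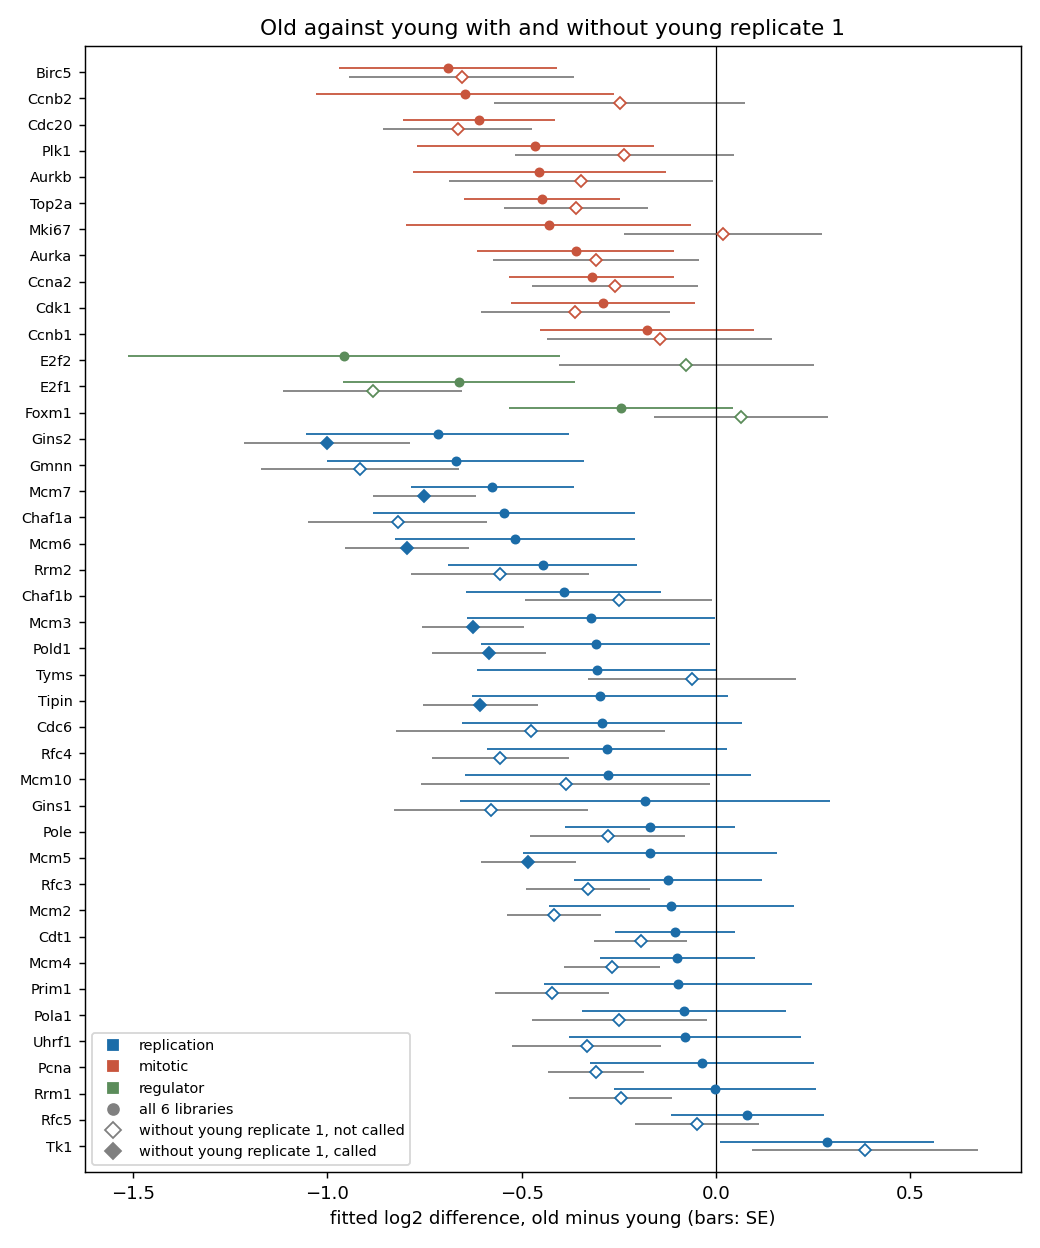
Fitted log2 difference, old minus young, with its SE, for the 42 tested genes with all 6 libraries and without young replicate 1. The 7 genes called without that library, at -0.48 to -1.001, are all replication genes.

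Helicase loading and activation held 5 of those 7 genes. Mcm6, the most abundant gene of the role at a mean FPKM of 61.3, stood at 129, 264 and 279 CPM in young and at 141, 192 and 136 CPM in old libraries, in replicate order. All old libraries lay above young replicate 1 and below the other young libraries. The difference was -0.52 ± 0.31 (SE, n = 3 per group) with all libraries, where edgeR did not call it (adjusted p = 0.66), and Mcm6 fell by 0.80 ± 0.16 without young replicate 1 (edgeR, adjusted p = 0.0241). Mcm7 (chromosome 5, 138164583 to 138172111 in GRCm38), the replication gene with the smallest p, stood at 105, 153 and 165 CPM in young and at 100.2, 102 and 82.1 CPM in old libraries. Its groups did not overlap, with young replicate 1 close to the old libraries. Its difference was -0.57 ± 0.21 with all libraries (edgeR, adjusted p = 0.368), and Mcm7 fell by 0.75 ± 0.13 without young replicate 1 (edgeR, adjusted p = 0.0162).

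Mcm3 and Mcm5 had the order of Mcm6. Mcm3 stood at 63.7, 145 and 151 CPM in young and at 99.3, 105 and 83.5 CPM in old libraries, and Mcm5 at 69.4, 173 and 162 CPM in young and at 124, 129 and 107 CPM in old libraries, in replicate order. For both, young replicate 1 was the lowest of the 6 libraries and young replicates 2 and 3 the highest. Without young replicate 1, Mcm3 fell by 0.62 ± 0.13 (edgeR, adjusted p = 0.0275) and Mcm5 by 0.48 ± 0.12 (edgeR, adjusted p = 0.049), whereas limma did not call Mcm5 (adjusted p = 0.0872). The remaining ring subunits, Mcm2 and Mcm4, had differences of -0.42 ± 0.12 and -0.27 ± 0.12 in that fit and were not called by edgeR, whereas DESeq2 called Mcm2 (adjusted p = 0.0153).

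Gins2 and Gmnn, rarer genes of this role, had larger differences and fewer counts. Gins2 stood at 4.80, 10.1 and 10.8 CPM in young and at 5.46, 4.75 and 5.41 CPM in old libraries, in replicate order, with 83 counts in its lowest library. Young replicate 1 lay among the old libraries, and the other young libraries were higher than all of them. The difference was -0.72 ± 0.34 with all libraries (edgeR, adjusted p = 0.542), and Gins2 fell by 1.001 ± 0.21 without young replicate 1 (edgeR, adjusted p = 0.0289). Gmnn, which encodes geminin, the inhibitor of the loading factor Cdt1, stood at 4.75, 8.12 and 9.82 CPM in young and at 5.56, 4.81 and 3.88 CPM in old libraries. Its difference was -0.67 ± 0.33 with all libraries and -0.92 ± 0.25 without young replicate 1, where edgeR did not call it (adjusted p = 0.0637) and DESeq2 did (adjusted p = 0.0247). Cdt1 varied little, at 57.8 to 74.6 CPM in young and 58.96 to 63.6 CPM in old libraries. Gins1 had the widest shortfall in young replicate 1 of the 28 replication genes, the mean of young replicates 2 and 3 being 3.60 times its level. Cdc6, which loads the ring together with Cdt1, and Mcm10, which helps to activate it, were the rarest of the role, at mean FPKM of 1.45 and 1.52. For Mcm10 the low library was old replicate 3, at 4.10 CPM against 8.10 to 11.8 CPM in the other 5.

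At the fork, Pcna, the most abundant of the 44 genes, stood at 168, 342 and 356 CPM in young and at 255, 278 and 312 CPM in old libraries, in replicate order. All old libraries lay inside the young range, and the difference was -0.035 ± 0.29 with all libraries and -0.31 ± 0.12 without young replicate 1, with no call by edgeR in either. Tipin stood at 15.5, 33.00 and 40.3 CPM in young and at 25.3, 22.4 and 24.5 CPM in old libraries, and it fell by 0.61 ± 0.15 without young replicate 1 (edgeR, adjusted p = 0.0442). Pold1 stood at 40.5, 74.8 and 94.3 CPM in young and at 59.1, 59.7 and 50.4 CPM in old libraries, and it fell by 0.58 ± 0.15 without young replicate 1 (edgeR, adjusted p = 0.0474), whereas limma did not call it (adjusted p = 0.0694). For both genes the old libraries again lay between young replicate 1 and the other young libraries. The clamp loader subunits Rfc3 and Rfc4, the primase subunit Prim1, and the polymerase subunits Pola1 and Pole had differences between -0.28 and -0.082 with all libraries and were not called by edgeR with or without young replicate 1. Rfc5, another clamp loader subunit, was 1 of 2 tested genes with a positive difference, 0.081 ± 0.20. It stood at 14.99, 22.5 and 18.02 CPM in young and at 20.7, 18.5 and 19.5 CPM in old libraries, and its difference without young replicate 1 was -0.049 ± 0.16.

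Among the nucleotide supply genes, 2 of 4 were below both other young libraries in young replicate 1 and 2 above both. Rrm1, the large subunit of ribonucleotide reductase, stood at 36.4, 63.5 and 73.02 CPM in young and at 54.8, 63.9 and 53.99 CPM in old libraries, in replicate order, with a difference of -0.0017 ± 0.26. Tyms, thymidylate synthase and the role's most abundant gene at a mean FPKM of 18.8, stood at 105, 47.8 and 87.3 CPM in young and at 79.9, 63.1 and 51.1 CPM in old libraries. For Tyms young replicate 1 was the highest library and young replicate 2 the lowest. Rrm2, the small reductase subunit that cycling cells make for S phase, stood at 11.3, 13.3 and 15.8 CPM in young and at 8.18, 12.5 and 9.07 CPM in old libraries, a difference of -0.45 ± 0.24 that edgeR did not call. Tk1, the cytosolic thymidine kinase, was the other gene with a positive difference, 0.29 ± 0.28, and stood at 5.04, 4.57 and 3.75 CPM in young and at 4.69, 6.75 and 4.86 CPM in old libraries. The groups overlapped for all 4 genes.

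Of the chromatin genes, Uhrf1, which guides maintenance of DNA methylation, stood at 17.8, 39.1 and 29.6 CPM in young and at 25.8, 32.7 and 23.3 CPM in old libraries, in replicate order. Chaf1a and Chaf1b, subunits of the histone chaperone CAF-1, moved apart in young replicate 1. Chaf1a was at 6.60 CPM there, against 12.3 and 15.1 CPM in the other young libraries and 6.56 to 9.50 CPM in old ones. Chaf1b stood at 14.8, 13.9 and 8.66 CPM in young and at 10.04, 9.34 and 9.13 CPM in old libraries, so that young replicate 1 was its highest library. Old minus young, Uhrf1 differed by -0.079 ± 0.30, Chaf1a by -0.55 ± 0.34 and Chaf1b by -0.39 ± 0.25, with no call by edgeR, and DESeq2 called Chaf1a without young replicate 1 (adjusted p = 0.0237).

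Of the regulators, E2f1 was low in young replicate 1 and E2f2 and Foxm1 were high. E2f1, an activator of replication genes, stood at 6.83, 11.9 and 12.1 CPM in young and at 6.71, 7.61 and 5.14 CPM in old libraries, in replicate order. Its difference was -0.66 ± 0.30 with all libraries and -0.88 ± 0.23 without young replicate 1, where edgeR did not call it (adjusted p = 0.0538) and DESeq2 did (adjusted p = 0.0143). E2f2, another activator, stood at 22.6, 6.50 and 6.30 CPM in young and at 8.13, 6.21 and 3.88 CPM in old libraries. Young replicate 1 held 3.54 times the mean of the other young libraries, the widest excess among the 44 genes, and the difference was -0.96 ± 0.56 with it and -0.076 ± 0.33 without it. Foxm1, an activator of mitotic genes, stood at 15.9, 10.1 and 8.43 CPM in young and at 8.46, 11.4 and 9.23 CPM in old libraries, and its difference of -0.24 ± 0.29 became 0.064 ± 0.22 without young replicate 1. E2f8, a repressor of E2F targets too rare to be tested, stood at 3.59, 4.19 and 1.68 CPM in young and at 2.18, 3.08 and 1.64 CPM in old libraries, with overlapping groups.

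Among mitotic genes, Cdc20, the activator of the anaphase-promoting complex (chromosome 4, 118432901 to 118437343 in GRCm38), stood at 11.98, 13.4 and 13.6 CPM in young and at 8.57, 9.39 and 7.60 CPM in old libraries, in replicate order. Its groups did not overlap, and young replicate 1 was close to the other young libraries. The difference was -0.61 ± 0.20 with all libraries and -0.66 ± 0.19 without young replicate 1, not called by edgeR in either (adjusted p = 0.281 and 0.0704) and called by DESeq2 in the second (adjusted p = 0.0333). Birc5, which encodes survivin of the chromosomal passenger complex, stood at 15.9, 9.73 and 19.99 CPM in young and at 9.66, 9.12 and 9.51 CPM in old libraries. The 3 old libraries were close together, young replicate 2 was just above them, and the difference was -0.69 ± 0.28. Top2a, a topoisomerase that untangles sister chromatids, stood at 40.8, 36.8 and 31.9 CPM in young and at 24.9, 32.9 and 22.6 CPM in old libraries, with old replicate 2 inside the young range and a difference of -0.45 ± 0.20. Groups did not overlap for 4 of the 44 genes, 3 of them mitotic (Cdc20, Birc5 and Cdk1) and 1 a replication gene (Mcm7), all lower in old libraries, where 6.54% of all tested genes were in that state.

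Some mitotic genes, Mki67 and Ccnb2 among them, were highest in young replicate 1. Mki67, which encodes the proliferation marker Ki-67, stood at 44.9, 23.9 and 18.9 CPM in young and at 17.1, 29.6 and 18.3 CPM in old libraries, in replicate order. Ccnb2, a B-type cyclin, stood at 7.87, 4.46 and 3.58 CPM in young and at 2.84, 4.48 and 2.84 CPM in old libraries. In both, old replicate 2 was above young replicates 2 and 3, and the difference went from -0.43 ± 0.37 to 0.018 ± 0.26 for Mki67 and from -0.65 ± 0.38 to -0.25 ± 0.32 for Ccnb2 when young replicate 1 was left out. Cdk1, the kinase that drives entry into mitosis, stood at 5.32, 6.66 and 5.78 CPM in young and at 4.86, 4.59 and 5.08 CPM in old libraries. Cyclin genes Ccna2 and Ccnb1 and kinase genes Aurka, Aurkb and Plk1 had differences of -0.46 to -0.18, with overlapping groups. Bub1, a checkpoint kinase below the limit for testing, stood at 2.84, 2.96 and 1.27 CPM in young and at 1.85, 2.38 and 1.58 CPM in old libraries.

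The old libraries differed among themselves too. Old replicate 2 was above both other old libraries for 29 of the 44 genes, 9 of the 12 mitotic genes among them, against 30.0% of all tested genes. Old replicate 3 was below both for 28 of the 44, against 33.1%.

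Further genes of each pathway were counted from wider lists. Of 42 other replication genes, 40 were tested, with a median difference of -0.16. EdgeR called 0 of them, with 1 lower at an unadjusted p under 0.05, against 3.96% of all genes, and DESeq2 called 0. EdgeR without young replicate 1 called 3 of the 40 lower (Timeless, Fen1 and Dut), against 2.98% of all genes. Timeless, the partner of Tipin, had the smallest p with all libraries, at 54.3, 60.6 and 72.1 CPM in young and at 42.99, 49.1 and 39.5 CPM in old libraries, in replicate order, a difference of -0.51 ± 0.17 (edgeR, adjusted p = 0.316). Next were Rpa2, a subunit of the single-strand binding protein, at -0.39 ± 0.18, and Pola2, the accessory subunit of the priming polymerase, at -0.27 ± 0.14. Of 16 other E2F and DREAM genes, 15 were tested, with a median of -0.090 and 0 calls in edgeR or DESeq2, and 0 at an unadjusted p under 0.05.

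The wider mitotic list held the 1 call that edgeR made in these lists. Its genes summed to 1842, 1289 and 1458 CPM in young and to 1133, 1122 and 1023 CPM in old libraries, in replicate order. These sums did not overlap between the ages. Of 63 other mitosis genes, 48 were tested, with a median difference of -0.49 and 45 of 48 below 0, and edgeR called 1, Stmn1, where 0.133% of all genes were called lower. DESeq2 called 2, Stmn1 and Ube2c, a ubiquitin-conjugating enzyme of the anaphase-promoting complex (adjusted p = 0.00787), at -0.83 ± 0.20 in edgeR, which did not call it (adjusted p = 0.142). In edgeR an unadjusted p under 0.05 was reached by 11 of the 48, all lower in old libraries, against 3.96% of all genes. Without young replicate 1 it called 5 lower, against 2.98%. Stmn1 (chromosome 4, 134468320 to 134473843 in GRCm38), which encodes the microtubule-destabilising protein stathmin, stood at 67.5, 44.9 and 66.8 CPM in young and at 21.9, 20.7 and 16.5 CPM in old libraries, in replicate order. The groups did not overlap, young replicate 1 was the highest library, and Stmn1 fell by 1.60 ± 0.22 (edgeR, adjusted p = 0.0303). With each library left out in turn the difference stayed between -1.77 and -1.49, and edgeR kept the call without young replicate 1 (adjusted p = 0.00748) and lost it without any of the other 5 libraries (adjusted p = 0.0605 to 0.191).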

How the data were processed

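The authors deposited 1 table of 66712 RefSeq transcripts with FPKM values and expected counts per library, per the file headers. The submitters' processing notes name Bowtie, RSEM and the build GRCm38 (mm10). How strand was set and which reads were kept is not stated. Both units were summed per gene, giving 19977 genes, and symbols came from RefSeq (19830 identifiers matched, 147 did not). Expected counts were rounded and tested with edgeR 4.0.16 in R 4.3.3 (quasi-likelihood test, TMM, mean FPKM 1 or higher, Benjamini-Hochberg), with no replicate block. DESeq2 1.42.0 and limma 3.58.1 were alternatives, and both were added without young replicate 1 after seeing the data. The SE came from dividing a log2 difference by the root of its F statistic. On simulated data for old against young (10509 genes, 200 changed, 3 runs) edgeR recovered 19.3% of log2 changes of 1 and 91.7% of changes of 2, with 8.77% of calls false, against 21.5% in DESeq2. Genes were simulated independently, with 3 libraries per age and no library shifted across genes. These rates therefore do not cover the fits without young replicate 1. The genes and lists were chosen with earlier results of these data known. All 44 genes could be named. Values in every library follow a rule: the 2 highest by FPKM in each role, the 4 smallest p among replication and among mitotic genes, regulators, untested genes and those of opposite sign, to which genes called without young replicate 1, and Chaf1a, Mki67, Cdk1, Ube2c, Thy1, Eomes and the other marker genes named, were added after their values were seen. Spans of 10 of the 44 genes overlap another protein-coding gene (Mcm7, Gins2, Rfc4, Tk1, Chaf1a, E2f1, Foxm1, Ccna2, Aurka and Cdc20), and Pcna, Tyms, Ccnb1 and Ccnb2 have named pseudogenes, so their counts may be shared.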

Additional observations from a re-analysis of the deposited data

How the results depend on the processing

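EdgeR called 92 genes, against 203 with no filter, 55 at a mean FPKM of at least 5, 501 in DESeq2, and 0 to 929 with 1 library left out (929 without young replicate 1, 0 without young replicate 2, 7 without young replicate 3, 6 without old replicate 1, 0 without old replicate 2 and 9 without old replicate 3). Without young replicate 1, DESeq2 called 1792 genes and limma 804, and of the 42 genes DESeq2 called 12, limma 6 and edgeR 7, where leaving out each library gave 0 to 7. The regulator median was -0.79 to -0.076 with 1 library left out, and -0.084 in DESeq2 and -0.041 in limma without young replicate 1, where limma gave -0.19 for mitotic genes. No regulator reached a mean FPKM of 5.

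Signs turned in the genes below, Mcm5 among them, which edgeR called without young replicate 1. Rrm1 was 0.020 with no filter, 0.018 with no scaling factors, and 0.058 and 0.065 in limma with pseudocounts of 1 and 0.1. In the same order limma gave 0.0072 and 0.044 for Gins1, 0.048 and 0.049 for Pcna, and 0.022 and 0.032 for Prim1. Without young replicate 1, DESeq2 gave 0.058 for Foxm1, 0.012 for Mki67 and -0.057 for Rfc5, and limma 0.063, 0.022 and -0.0087, with 0.0080 for Tyms. With 1 library left out, edgeR ranges that crossed 0 were -0.42 to 0.12 for Mcm2, -0.27 to 0.010 for Mcm4, -0.48 to 0.052 for Mcm5, -0.48 to 0.034 for Mcm10, -0.58 to 0.073 for Gins1, -0.31 to 0.14 for Pcna, -0.33 to 0.022 for Rfc3, -0.049 to 0.24 for Rfc5, -0.30 to 0.054 for Pola1, -0.42 to 0.13 for Prim1, -0.25 to 0.20 for Rrm1, -0.33 to 0.20 for Uhrf1, -0.43 to 0.064 for Foxm1 and -0.72 to 0.018 for Mki67. Other scalings moved the median of all genes to -0.044 at most. The cause of these shifts was not tested.

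Replicate numbers were tried as a pairing. Deviations of same-numbered libraries from their group means correlated at 0.231, -0.023 and 0.209, and those of other-numbered libraries at -0.347 to 0.358. With 3 libraries per age, these values cannot decide whether the numbers pair the libraries. With the replicate block edgeR called 119 genes and 0 of the 42, with medians of -0.18 for replication, -0.41 for mitotic and -0.63 for regulator genes, and 0.053 for Rrm1, 0.035 for Pcna and 0.0093 for Prim1. Depth limits the rare genes most: Bub1 and E2f8 had 22 and 29 counts in their lowest library.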
